A study of Mus musculus with 6 samples.

Results

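Aminoacyl-tRNA synthetases are the enzymes that load each amino acid onto its transfer RNA. The set described here held 39 of the 24470 genes in the deposited count table: 20 cytosolic enzymes, 16 mitochondrial enzymes and 3 non-enzymatic proteins that hold several cytosolic enzymes together in one complex. Members were found by gene symbol. 38 matched directly, and the methionine enzyme Mars was listed under its newer symbol Mars1 (NCBI Gene 216443).

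RNA came from naive CD4+ T cells, the resting helper T cells, isolated by magnetic sorting (MACS) from spleens and skin-draining nodes of male C57BL/6J mice. All 6 samples were cultured in 200 µL for 6 h on plastic coated with 1 µg/mL of antibodies to CD3 and CD28, which stimulate the T cell receptor complex and its costimulatory partner. Recombinant mouse CCL19, a chemokine and ligand of CCR7, was present in 3 samples and absent from the other 3 (labelled NoCKN, here "no CCL19"). The labels used here give no age of the mice. Nothing in the labels says that replicates came from separate mice or cultures, so p-values reflect only how these samples varied, and that variation may be technical. Both groups carried the antibody stimulus, so the comparison asks what CCL19 changed on top of it and not what stimulation changed.

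Each synthetase recognises 1 amino acid and the matching transfer RNAs, spends ATP to activate the amino acid and then transfers it to the RNA. Ribosomes in the cytosol and in mitochondria use separate transfer RNAs, and for most amino acids a separate nuclear gene, marked with the suffix 2, encodes the mitochondrial enzyme. Gars and Kars are exceptions, as each encodes the enzyme of both compartments. Eprs joins the glutamate and proline enzymes in 1 chain, and phenylalanine is loaded in the cytosol by a complex of Farsa and Farsb. T cells enlarge and raise protein synthesis after stimulation, and transcription of many cytosolic synthetase genes is known to respond to the amino acid stress factor ATF4.

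Promoters are shown first for the cytosolic members whose 250 bases upstream of the RefSeq start held at least 1 of 2 motifs, beside 2 mitochondrial counterparts that held neither. RefSeq promoters (GRCm38.p6) were matched for 30 of the 39 members, of which 13 were cytosolic, 14 mitochondrial and 3 scaffold genes. Capitals mark the C/EBP-ATF response element TGATGNAA, which appears here as its reverse complement, or the E-box CACGTG. The stretches were Aars at chr8:111033692-111033841 (plus strand), Gars at chr6:55037851-55038000 (plus), Tars at chr15:11399659-11399808 (minus), Iars at chr13:49681980-49682129 (plus), Farsb at chr1:78488898-78489047 (minus), Tars2 at chr3:95754978-95755127 (minus) and Iars2 at chr1:185329402-185329551 (minus).
Aars: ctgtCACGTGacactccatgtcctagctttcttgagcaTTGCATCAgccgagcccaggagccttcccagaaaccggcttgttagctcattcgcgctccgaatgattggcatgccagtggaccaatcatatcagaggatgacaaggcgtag
Gars: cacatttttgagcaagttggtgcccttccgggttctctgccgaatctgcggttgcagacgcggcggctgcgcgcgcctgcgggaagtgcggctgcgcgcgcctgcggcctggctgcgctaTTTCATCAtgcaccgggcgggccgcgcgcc
Tars: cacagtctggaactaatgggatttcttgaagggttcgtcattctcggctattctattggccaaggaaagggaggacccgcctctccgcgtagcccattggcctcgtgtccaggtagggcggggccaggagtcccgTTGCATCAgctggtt
Iars: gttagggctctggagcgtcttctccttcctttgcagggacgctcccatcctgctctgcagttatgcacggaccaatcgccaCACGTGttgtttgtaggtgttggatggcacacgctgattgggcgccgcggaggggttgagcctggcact
Farsb: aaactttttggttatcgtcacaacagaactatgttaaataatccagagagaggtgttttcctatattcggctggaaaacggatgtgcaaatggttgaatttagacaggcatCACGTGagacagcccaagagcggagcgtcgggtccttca
Tars2: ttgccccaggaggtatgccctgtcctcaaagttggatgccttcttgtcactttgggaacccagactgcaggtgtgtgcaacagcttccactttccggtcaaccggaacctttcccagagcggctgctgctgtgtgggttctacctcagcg
Iars2: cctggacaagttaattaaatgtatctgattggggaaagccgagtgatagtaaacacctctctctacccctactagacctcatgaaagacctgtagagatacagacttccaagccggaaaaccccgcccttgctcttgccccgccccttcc
The response element lay 112 bases upstream of the start in Aars, 30 in Gars and 15 in Tars. It was found in 3 of 13 cytosolic, 0 of 14 mitochondrial and 0 of 3 scaffold promoters, against 3.91% of 27025 promoters of all genes and 2.37% of the 9322 belonging to tested genes. The E-box lay 146 bases upstream in Aars, 69 in Iars and 39 in Farsb. It was found in 3 of 13 cytosolic promoters and in none of the mitochondrial or scaffold ones, against 6.86% of all promoters and 10.2% of those of tested genes. The third motif searched, the ETS site CCGGAAGT, was in Farsa and Mars1, in 0 of 14 mitochondrial promoters and in the scaffold gene Aimp1, against 3.23% of all and 7.28% of tested promoters. Both strands were searched, none of the motifs overlap in letters, and a match describes letters only.

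Libraries held between 16978736 and 27429898 counts assigned to genes, and all 39 members passed the filter on low counts. Their counts lay between 172 and 19648 in any library. Over all 11666 tested genes the edgeR quasi-likelihood test called 0 genes at an adjusted p under 0.05 (0% higher and 0% lower), with a lowest adjusted p of 0.0505. DESeq2 called 630 genes higher (6.55% of the 9613 it gave an adjusted p) and 538 lower (5.6%). The text therefore gives every library's value and names the test behind each call. Summed T cell markers lay between 3899 and 4078 CPM (counts relative to the library total, scaled by TMM) with CCL19 and between 3966 and 4254 without, and the markers of B, CD8, NK, myeloid and erythroid cells each summed to at most 27.9 CPM. Regulatory T cell markers summed to 35.0 to 40.6 CPM over all libraries.

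Cytosolic synthetase mRNAs stood higher with CCL19, by about 1.2-fold, and mitochondrial synthetase mRNAs did not move in 1 direction. All 20 cytosolic enzymes had a log2 fold change above 0, with a median of 0.26 and a range of 0.04 to 0.36, where 49.8% of all tested genes lay above 0 and their median was -0.000744. DESeq2 called 11 of the 20 higher and 0 lower, against 6.55% and 5.6% of all genes. Of the 16 mitochondrial enzymes 8 lay above 0 and 8 below (50.2% of all genes lay below), with a median of -0.02, and DESeq2 called 0 of them, as did edgeR and limma-voom. All 3 scaffold genes lay above 0 (median 0.28), and DESeq2 called 1. edgeR and limma-voom called 0 of the 39 members at an adjusted p under 0.05. At an unadjusted edgeR p under 0.05 there were 15 cytosolic, 1 mitochondrial and 2 scaffold members, all higher, against 14.5% of all genes higher and 13% lower. The groups did not overlap in 15 cytosolic and 2 scaffold members, all higher, and in 0 mitochondrial members, against 15.3% of all genes higher and 14.5% lower.

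**Figure D1:**
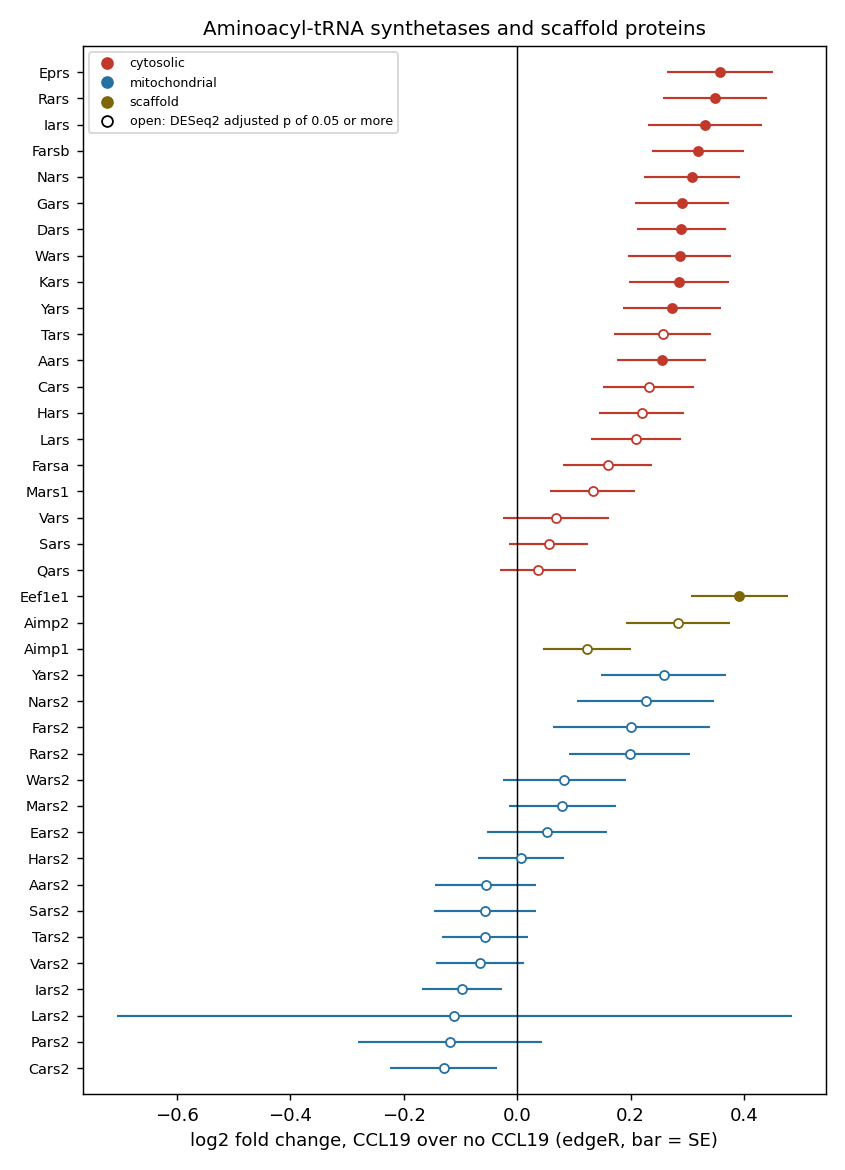
Log2 fold change of each of the 39 members, CCL19 over no CCL19, from edgeR, with its SE as a bar. Filled points are the 12 members that DESeq2 called; all 20 cytosolic enzymes lie right of 0, and the 16 mitochondrial enzymes lie on both sides.

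Among the enzymes carried by the multi-synthetase complex, Eprs moved furthest. Eprs (NCBI Gene 107508, mm10 chr1:185363095-185428355) stood at 402, 365 and 338 CPM in CCL19 replicates 1, 2 and 3 and at 254, 299 and 309 CPM in the no-CCL19 replicates. The groups did not overlap, and the log2 fold change was 0.36 ± 0.09 (SE; DESeq2 adjusted p = 0.00798, edgeR adjusted p = 0.0542). Rars, the arginine enzyme (chr11:35808381-35834528), stood at 196, 178 and 176 CPM with CCL19 and at 123, 155 and 153 CPM without. No-CCL19 replicate 1 was far below the other libraries, and the groups were separate (0.35 ± 0.09, DESeq2 adjusted p = 0.0132). Iars, the isoleucine enzyme (chr13:49682130-49734267), gave 312, 282 and 241 CPM against 197, 228 and 239 CPM. Its groups touched almost, since CCL19 replicate 3 and no-CCL19 replicate 3 differed by little, and the log2 fold change was 0.33 ± 0.10 (DESeq2 adjusted p = 0.023). Dars, the aspartate enzyme (chr1:128363707-128417416), stood at 112, 106 and 102 CPM against 79.9, 88.1 and 93.6 CPM, with all CCL19 libraries on top (0.29 ± 0.08, DESeq2 adjusted p = 0.0216). Kars, the lysine enzyme of both compartments (chr8:111993439-112011354), stood at 298, 286 and 264 CPM against 205, 250.03 and 240.4 CPM, again with separate groups (0.29 ± 0.09, DESeq2 adjusted p = 0.0262).

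The other 3 enzymes of the complex were not called. Lars, the leucine enzyme, stood at 154, 153 and 137 CPM with CCL19 and 117, 131 and 136 CPM without, so that the groups were separate by a narrow gap between CCL19 replicate 3 and no-CCL19 replicate 3 (0.21, DESeq2 adjusted p = 0.0955). Mars1, the methionine enzyme that also supplies initiator transfer RNA, stood at 139, 132 and 126 CPM against 114, 129 and 118 CPM, and its groups overlapped (0.13, DESeq2 adjusted p = 0.289). Qars, the glutamine enzyme, stood at 148, 146 and 149 CPM against 140.5, 144 and 147 CPM and had the smallest log2 fold change of the cytosolic enzymes, 0.04 ± 0.07 (DESeq2 adjusted p = 0.764). Over the 8 enzymes of the complex the median log2 fold change was 0.29 with 5 called by DESeq2. Over the 12 cytosolic enzymes outside it the median was 0.26 with 6 called. Of all genes DESeq2 called 6.55% higher.

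The 3 scaffold proteins bind these enzymes. Eef1e1, also called AIMP3 (NCBI Gene 66143, chr13:38645691-38659028), had the largest log2 fold change of all 39 members, 0.39 ± 0.09 (DESeq2 adjusted p = 0.00493, edgeR adjusted p = 0.0505). It stood at 95.2, 93.5 and 83.8 CPM with CCL19 and 61.6, 73.0 and 73.1 CPM without, so every CCL19 library was above every other. Aimp2 stood at 65.1, 61.1 and 58.0 CPM against 44.1, 55.2 and 51.9 CPM, with separate groups and no call (0.28 ± 0.09, DESeq2 adjusted p = 0.0548). Aimp1, whose released fragment also acts as a cytokine, stood at 63.3, 70.3 and 72.1 CPM against 62.1, 65.2 and 61.7 CPM, with overlapping groups (0.12 ± 0.08, DESeq2 adjusted p = 0.363). In Aimp1 CCL19 replicate 1 was the lowest of its group, whereas in Eef1e1 and Aimp2 it was the highest.

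Of the cytosolic enzymes outside the complex, Farsb, the beta chain of the phenylalanine enzyme (chr1:78417958-78488897), stood at 103, 93.4 and 87.7 CPM with CCL19 and 70.3, 77.4 and 79.9 CPM without. The groups were separate (0.32 ± 0.08, DESeq2 adjusted p = 0.0159, edgeR adjusted p = 0.0505). Its partner chain Farsa stood at 146, 143 and 126 CPM against 117, 131 and 124 CPM and overlapped (0.16, DESeq2 adjusted p = 0.21). Whether the chains of this enzyme differed in their change was not tested. Nars, the asparagine enzyme, stood at 278, 278 and 253 CPM against 194, 234 and 225 CPM (0.31 ± 0.09, DESeq2 adjusted p = 0.0139). Gars, the glycine enzyme of both compartments (chr6:55038001-55079504), stood at 199, 179 and 175 CPM against 136, 161 and 155 CPM (0.29 ± 0.08, DESeq2 adjusted p = 0.0226). In both genes the no-CCL19 replicate 1 library was the lowest and the groups were separate.

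Wars, the tryptophan enzyme (chr12:108860030-108894174), stood at 207, 195 and 178 CPM with CCL19 and 139, 177 and 160 CPM without. Its groups were separate by a narrow gap between CCL19 replicate 3 and no-CCL19 replicate 2 (0.29 ± 0.09, DESeq2 adjusted p = 0.0394). Yars, the tyrosine enzyme (chr4:129189795-129219607), stood at 98.04, 96.5 and 90.7 CPM against 69.7, 87.9 and 78.2 CPM (0.27 ± 0.09, DESeq2 adjusted p = 0.0478). Aars, the alanine enzyme (chr8:111033842-111055569), stood at 162, 150 and 138 CPM against 118, 131 and 127 CPM (0.25 ± 0.08, DESeq2 adjusted p = 0.0377). Yars and Aars also had separate groups, so the groups did not overlap in any of the 12 members called by DESeq2. In GENCODE M21 Aars shares 1326 exonic bases with Exosc6 on the same strand, so its counts are uncertain.

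**Figure D2:**
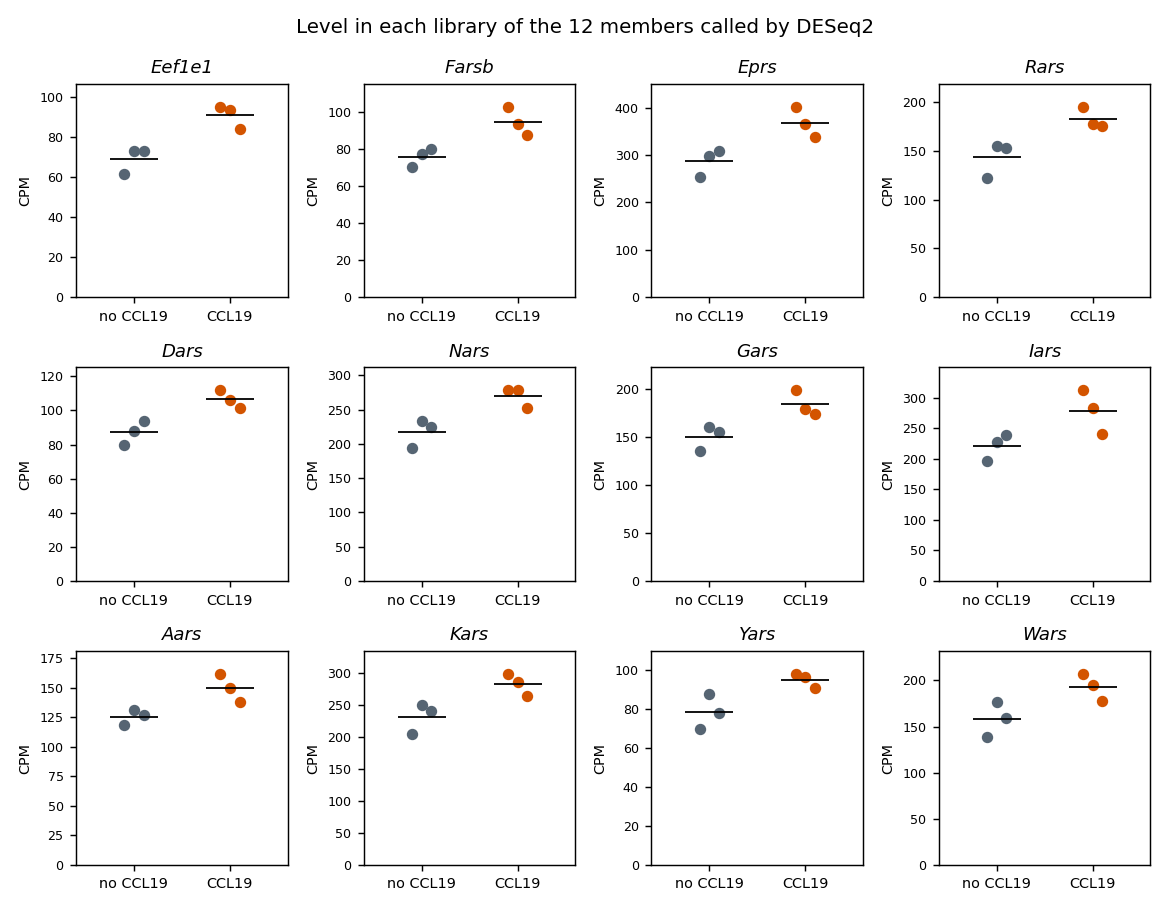
Level of the 12 members called by DESeq2 in CPM, 1 point a library with replicates 1 to 3 from left to right and a line at the group mean, ordered by edgeR p. In each panel the 3 CCL19 libraries lie above the 3 no-CCL19 libraries.

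Another 3 enzymes outside the complex had separate groups without a call. Tars, the threonine enzyme, stood at 194, 182 and 162 CPM with CCL19 and 136, 158 and 157 CPM without (0.26 ± 0.09, DESeq2 adjusted p = 0.0517). Cars, the cysteine enzyme, stood at 87.8, 88.9 and 80.8 CPM against 66.4, 75.9 and 77.0 CPM (0.23, DESeq2 adjusted p = 0.0749). Hars, the histidine enzyme, stood at 127, 127 and 125 CPM against 98.8, 113 and 115 CPM (0.22 ± 0.08, DESeq2 adjusted p = 0.0679). In these genes CCL19 replicate 3 was the lowest of its group and no-CCL19 replicate 1 the lowest of all.

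Vars and Sars stood nearly level. Vars, the valine enzyme, stood at 390 CPM in CCL19 replicate 1 and 379 and 338 CPM in the others, against 329.9, 397 and 328 CPM without CCL19, so the highest of its libraries was no-CCL19 replicate 2 (0.07 ± 0.09, DESeq2 adjusted p = 0.655). Sars, the serine enzyme, stood at 209, 213 and 208 CPM against 196, 209.7 and 201 CPM (0.06 ± 0.07, DESeq2 adjusted p = 0.635). Both had overlapping groups, as had Qars, Mars1 and Farsa. These were the 5 cytosolic enzymes with overlapping groups. That they miss the threshold does not show that CCL19 left them as they were.

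The authors' deposited table of changed genes lists 1168 genes, 630 higher and 538 lower with CCL19. It holds 12 members, all as higher: Aars, Dars, Eef1e1, Eprs, Farsb, Gars, Iars, Kars, Nars, Rars, Wars and Yars. These are the members DESeq2 called here from the same counts, so the authors' table is not a separate measurement. The 12 members had edgeR adjusted p of at most 0.0763.

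The calls rested on particular libraries. Without CCL19 replicate 1 and without CCL19 replicate 2 DESeq2 called 0 members, without no-CCL19 replicate 1 it called 1 (Eef1e1), and without CCL19 replicate 3 it called 17. It called 12 without no-CCL19 replicate 2 and 9 without no-CCL19 replicate 3. Only 30 members were given an adjusted p when CCL19 replicate 1 was left out, and 24 when no-CCL19 replicate 1 was. edgeR called 15 members without CCL19 replicate 3, where it called 1599 of 11871 genes. It called 2 members without no-CCL19 replicate 3 (513 of 11872 genes) and 14 with no filter on low counts (1600 of 15905 genes). Calls over all genes moved too, from 1168 of 9613 by DESeq2 with all libraries. DESeq2 called 55 of 5967 genes without CCL19 replicate 1, 123 of 8013 without CCL19 replicate 2 and 1704 of 9836 without CCL19 replicate 3. Without no-CCL19 replicates 1, 2 and 3 in turn it called 105 of 3287, 1010 of 8607 and 1258 of 9522 genes. The direction rested less on any library: all 20 cytosolic log2 fold changes were above 0 with each library left out in turn, and their median then lay between 0.20 and 0.31.

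Libraries kept a common order across the cytosolic enzymes. CCL19 replicate 1 was the highest library in 15 of the 20 genes and no-CCL19 replicate 1 the lowest in 19. CCL19 replicate 3 was the lowest of its group in 19 of the 20. The members are thus not independent of each other. The same libraries stood at the ends of the summed naive T cell markers (Ccr7, Lef1, Tcf7, Il7r and S1pr1), in the opposite order. That sum was lowest in CCL19 replicate 1, at 2629 CPM, and highest in no-CCL19 replicate 1, at 4159 CPM. It ranged from 2629 to 3332 CPM with CCL19 and from 3286 to 4159 CPM without, so the groups overlapped. All 5 naive markers had a log2 fold change below 0 (median -0.32), and DESeq2 called 4 lower, against 5.6% of all genes. The 8 B cell markers also all lay below 0 (median -0.33, 0 called by DESeq2), with summed levels of 18.7 to 24.8 CPM with CCL19 and 24.1 to 27.9 CPM without. The 5 listed NK cell markers summed to 2.95 to 3.29 CPM against 3.49 to 3.92 CPM. No listed marker was at 0 in every library. The part of these in the synthetase values was not tested. In bulk RNA, a different share of cells and a different amount of RNA per cell cannot be told apart.

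The mitochondrial enzymes were mostly less abundant. Per length (RPKM, which is CPM divided by the transcript length in kilobases) and without CCL19, the cytosolic enzymes had levels from 21.8 for Aars to 115 for Kars with a median of 55.3. Leaving Lars2 aside, the mitochondrial levels ran from 3.15 for Wars2 to 55.3 for Tars2, with a median of 12.2. With CCL19 the median RPKM levels were 62.8 and 12.9. In all 16 mitochondrial genes the groups overlapped. No library led this set as it did the cytosolic one, since among the 15 without Lars2 the highest library was CCL19 replicate 1 in 5 genes, CCL19 replicate 3 in 4 and no-CCL19 replicates 1 and 2 in 3 each.

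The mitochondrial member with the smallest p was Yars2, the tyrosine enzyme, at 54.3, 49.0 and 41.2 CPM with CCL19 and 35.0, 44.6 and 41.0 CPM without. Its log2 fold change of 0.26 ± 0.11 was like that of cytosolic enzymes, but its groups overlapped (edgeR adjusted p = 0.15). When CCL19 replicate 3 was left out, both edgeR and DESeq2 called it (edgeR adjusted p = 0.0404, and up to 0.488 over its other alternatives). Nars2 stood at 20.2, 15.5 and 17.6 CPM against 13.5, 16.1 and 15.7 CPM (0.23 ± 0.12, edgeR adjusted p = 0.239). Rars2 stood at 29.4, 25.6 and 23.4 CPM against 20.7, 23.0 and 24.6 CPM (0.20 ± 0.11, edgeR adjusted p = 0.242). Fars2 stood at 11.4, 11.3 and 15.6 CPM against 11.5, 10.6 and 11.3 CPM, so that CCL19 replicate 3 alone stood apart (0.20 ± 0.14, edgeR adjusted p = 0.363). Iars2 went the other way, at 90.9, 90.7 and 97.8 CPM against 101, 96.8 and 101 CPM (-0.10 ± 0.07, edgeR adjusted p = 0.387). None of these 5 enzymes, which load tyrosine, asparagine, arginine, phenylalanine and isoleucine, passed in edgeR or DESeq2 with all 6 libraries.

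The remaining mitochondrial enzymes lay close to 0. Above it were Wars2 (0.08), Mars2 (0.08), Ears2 (0.05) and Hars2 (0.01), and below it Aars2 (-0.06), Sars2 (-0.06), Tars2 (-0.06), Vars2 (-0.07), Pars2 (-0.12) and Cars2 (-0.13). Tars2, the most abundant of them per length, stood at 117, 133 and 132 CPM with CCL19 and 132, 139.6 and 127 CPM without. Its cytosolic counterpart Tars had separate groups at a similar level in CPM.

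Lars2, the mitochondrial leucine enzyme (chr9:123366940-123462664), had 1 library far from the rest. It stood at 1102, 53.4 and 646 CPM with CCL19 and at 812, 542 and 588 CPM without, so that no library but CCL19 replicate 2 was below 542 CPM. Its log2 fold change was -0.11 ± 0.59 (edgeR adjusted p = 0.925), and without CCL19 replicate 2 it was 0.43 ± 0.19 (edgeR adjusted p = 0.23). Without CCL19 replicate 1 it was -0.89. Among 9379 genes with a summed count of at least 600, only 2 had a library more than 4-fold from the median of the 6. They were Lars2 and Mir6236, the gene of a short annotated RNA, and in both it was CCL19 replicate 2. Mir6236 stood at 797, 13.4 and 451 CPM with CCL19 and 578, 390.1 and 415 CPM without. There were 1.38 to 1.43 Lars2 counts per Mir6236 count in the other 5 libraries and 3.997 in CCL19 replicate 2. The sources used here do not say how multi-mapped reads were treated, and why these genes moved together was not tested. Lars2 made up 46.5% to 64.7% of all mitochondrial synthetase CPM in 5 libraries and 8.03% in CCL19 replicate 2, so sums over this compartment are given with and without it.

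**Figure D3:**
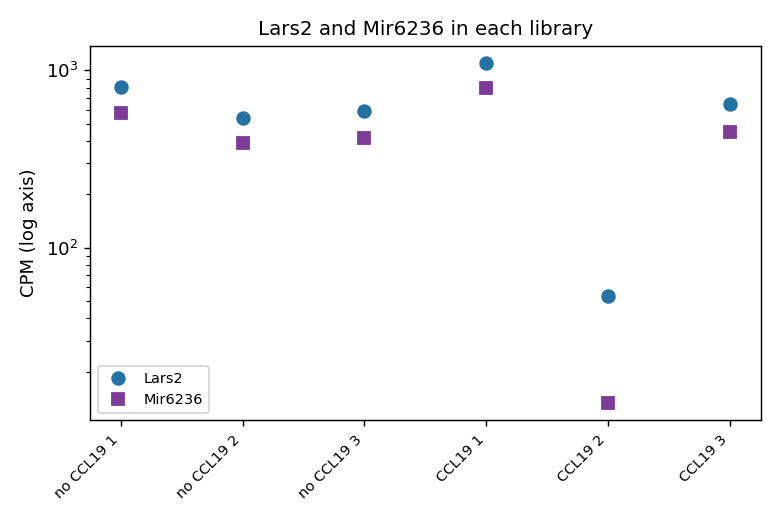
CPM of Lars2 and Mir6236 in each of the 6 libraries, on a log axis. Both are far lower in CCL19 replicate 2, at 53.4 and 13.4 CPM, than in the other 5 libraries.

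Summed over its 20 members, the cytosolic set took 3960, 3773 and 3495 CPM with CCL19 and 2902, 3376 and 3262 CPM without. The means were 3743 ± 234 and 3180 ± 247 CPM (SD, n = 3), a ratio of 1.18, and the groups did not overlap. The 15 mitochondrial enzymes without Lars2 summed to 601, 612 and 606 CPM against 607, 623 and 595 CPM. Their means were 606 ± 5.46 and 608 ± 13.9 CPM (SD, n = 3), a ratio of 0.997, with overlapping groups. With Lars2 the mitochondrial sums were 1704, 666 and 1251 CPM against 1418, 1165 and 1184 CPM. The 3 scaffold genes summed to 221 ± 5.98 CPM with CCL19 and 183 ± 13.3 CPM without (SD, n = 3), a ratio of 1.21. For the 8 enzymes of the complex the sums were 1647 ± 114 and 1364 ± 115 CPM, again a ratio of 1.21.

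**Figure D4:**
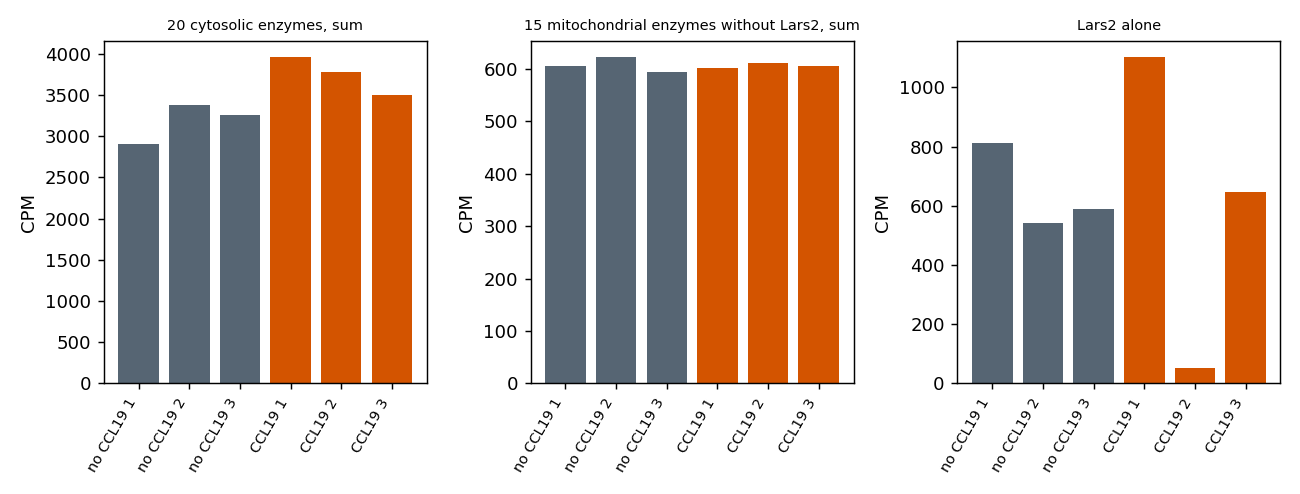
Summed CPM per library of the 20 cytosolic enzymes (left) and the 15 mitochondrial enzymes other than Lars2 (middle), and the CPM of Lars2 (right), with bars from 0. The cytosolic bars are higher in all 3 CCL19 libraries, the mitochondrial bars lie between 595 and 623 CPM, and the Lars2 bar of CCL19 replicate 2 is at 53.4 CPM.

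A ratio taken within a library does not depend on its depth. The log2 ratio of cytosolic over mitochondrial sums without Lars2 was 2.72, 2.62 and 2.53 in CCL19 replicates 1, 2 and 3 and 2.26, 2.44 and 2.45 in the no-CCL19 libraries, so the groups did not overlap (difference 0.24). With Lars2 included the ratios were 1.22, 2.503 and 1.48 against 1.03, 1.53 and 1.46. The difference between the group means was then 0.39, and without CCL19 replicate 2 it was 0.0059. A ratio shows unequal change between the compartments and not that either was steady.

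Compared amino acid by amino acid, 17 pairs of a cytosolic and a mitochondrial enzyme could be formed, some sharing Eprs or Fars2. The mean log2 ratio of cytosolic over mitochondrial counts was higher with CCL19 in 16 pairs, with a median difference of 0.22. The 16 include the leucine pair, whose mean was higher only through CCL19 replicate 2. Its log2 ratio was -2.84, 1.51 and -2.24 with CCL19 and -2.79, -2.06 and -2.11 without. Groups did not overlap in 4 pairs, all higher, and overlapped in 13. The share of such ratios over other gene pairs was not computed, and among single genes 15.3% had separate groups with the CCL19 libraries higher. Isoleucine showed the largest of these 4 differences: the log2 ratio of Iars over Iars2 was 1.78, 1.64 and 1.302 with CCL19 and 0.96, 1.24 and 1.24 without (difference 0.43). Cars over Cars2 was 1.95, 1.86 and 1.62 against 1.21, 1.54 and 1.59 (difference 0.36). Aars over Aars2 was 2.12, 1.90 and 2.02 against 1.69, 1.67 and 1.75 (difference 0.31), with the no-CCL19 libraries close together. Hars over Hars2 was 1.195, 1.25 and 1.32 against 0.91, 1.10 and 1.11 (difference 0.22). The pair with a lower mean ratio was Farsa over Fars2 (-0.02).

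Hars and Hars2 are neighbours that point away from each other, with 3 bases between their ends in the deposited coordinates. In the GENCODE M21 annotation, which need not be the one the counts were placed on, their exons share 195 bases on opposite strands. The sources used here do not state whether counting used strand, so reads from any shared stretch cannot be told apart. Hars nevertheless had separate groups while Hars2 stood at 55.6, 53.3 and 50.2 CPM against 52.7, 52.6 and 53.1 CPM. Exons of Farsb, Mars1, Yars, Cars2, Ears2, Fars2, Iars2, Aimp1 and Aimp2 also overlap a listed gene on the opposite strand in GENCODE M21, over 30 (Yars) to 2034 bases (Iars2).

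**Figure D5:**
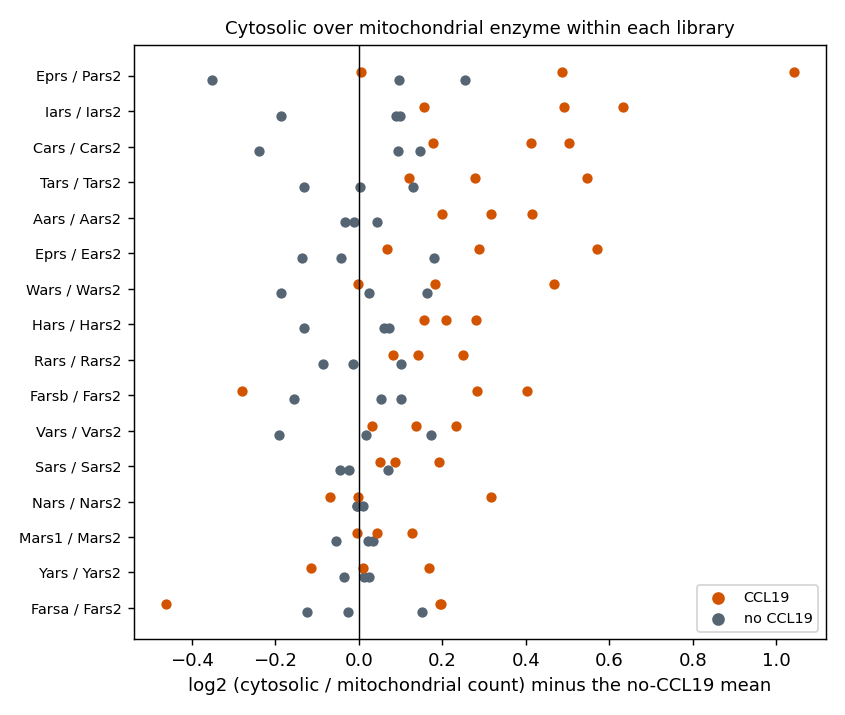
Log2 ratio of cytosolic over mitochondrial counts for each pair of enzymes, minus the mean of the 3 no-CCL19 libraries, 1 point a library; the leucine pair is left out because of Lars2. The CCL19 points lie right of all no-CCL19 points for isoleucine, cysteine, alanine and histidine.

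Grouping the cytosolic enzymes by other properties gave similar medians. The enzymes fall into structurally unrelated classes by the fold of their catalytic domain. The 9 cytosolic class I enzymes had a median log2 fold change of 0.23, and DESeq2 called 4 of them. The 10 class II enzymes had a median of 0.27 with 6 called. Eprs, which joins the glutamate and proline enzymes, was counted in neither class (0.36, called by DESeq2). Of all genes DESeq2 called 6.55% higher. Of the 12 synthetases generally named as ATF4 targets, DESeq2 called 7, with a median of 0.26. Of the 8 cytosolic enzymes not on that list it called 4, with a median of 0.25. Among mitochondrial enzymes the medians were 0.05 for class I and -0.06 for class II. The median transcript GC content was 50.7% for cytosolic and 52.8% for mitochondrial members. Among all tested genes split into 10 classes of GC content, the median log2 fold change went from 0.12 in the lowest class to -0.16 in the highest. The highest class held 1 cytosolic and 3 mitochondrial members, and the class next to it 2 of each. Relative to tested genes of similar GC content the medians were 0.27 and 0.07.

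Genes that act before and after charging were read from lists of related functions. Of 15 accessory genes of charging, 10 lay above 0, with a median log2 fold change of 0.12, and DESeq2 called 1 higher, a share near the 6.55% of all genes it called higher. The called gene was Trnt1, which adds the CCA end that every transfer RNA needs, at 89.8, 83.9 and 79.3 CPM with CCL19 and 56.9, 65.9 and 75.1 CPM without (0.35 ± 0.10, DESeq2 adjusted p = 0.0187). Of 47 genes of transfer RNA processing and modification, 38 lay above 0 (median 0.15), and DESeq2 called 7 higher and 0 lower, against 6.55% and 5.6% of all genes. The pseudouridine synthase Pus7 stood at 202, 193 and 166 CPM against 113, 143 and 142 CPM (0.49 ± 0.10, DESeq2 adjusted p = 0.00183), further from 0 than any synthetase. The methyltransferase subunit Trmt6 (0.38), the queuosine enzyme subunit Qtrt2 (0.36) and the La protein Ssb (0.33), which binds new transfer RNA ends, were also called.

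Among 9 elongation factors that take up charged transfer RNA or move it, 8 lay above 0 with a median of 0.07, where 49.8% of all genes lay above 0. DESeq2, which called 6.55% of all genes higher, called the mitochondrial factor Gfm1, at 70.1 ± 7.79 against 56.0 ± 3.66 CPM (0.32), and the cytosolic subunit Eef1g, at 591 ± 5.27 against 509 ± 18.9 CPM (0.22). Of 17 amino acid transporters, 12 lay above 0 (median 0.21). DESeq2 called 2 higher and 2 lower, against 6.55% and 5.6% of all genes. They were the arginine and lysine carrier Slc7a1 (0.39) and the glutamine carrier Slc38a1 (0.26), both higher, and the neutral amino acid carriers Slc43a2 (-0.41) and Slc36a1 (-0.34), both lower. The groups overlapped for Slc7a1.

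Of the 18 tested genes of the amino acid stress pathway 12 lay above 0 (median 0.11), and DESeq2 called 2 higher and 1 lower. The lower share is near that over all genes (5.6%), and 6.55% of all genes were called higher. Atf4 itself stood at 369, 366 and 355 CPM with CCL19 and 307, 349 and 329 CPM without, with separate groups and no call (0.15, DESeq2 adjusted p = 0.18). The higher genes were Mthfd2, a mitochondrial folate enzyme (0.45), and Psat1, which makes serine (0.34). Trib3, which ATF4 induces and which inhibits it, was lower at 11.1, 12.01 and 14.6 CPM against 22.6, 16.0 and 17.6 CPM (-0.57 ± 0.14, DESeq2 adjusted p = 0.00983). In Trib3 no-CCL19 replicate 1 was the highest library and CCL19 replicate 1 the lowest, opposite to the ends seen in most cytosolic synthetases.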

How the data were processed

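The authors deposited a table of unnormalized whole read counts, 1 row a gene, with its NCBI Gene ID, symbol and position in mm10, per the file headers. Libraries were made with a TruSeq RNA kit, per the labels' protocols. Reads were aligned with STAR 2.5 and counted with featureCounts 1.5.0-p1 of Subread, and DESeq2 1.28.1 was among the tools, per the submitters' processing notes. The sources used here state neither the strand setting, nor the treatment of multi-mapped reads, nor the annotation release. The authors' deposited list of changed genes gives a direction in words and no threshold.

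The 3 CCL19 and 3 no-CCL19 libraries were compared over all genes that passed filterByExpr (11666 of 15905 with a count) with the quasi-likelihood F test of edgeR 4.0.16 in R 4.3.3, scaled by TMM (biological coefficient of variation 8.72%). P-values were adjusted by Benjamini-Hochberg over all genes at a threshold of 0.05. DESeq2 1.42.0 and limma 3.58.1 (voom) were alternatives, as were a robust prior, testing without a filter, a filter of 1 CPM in 3 libraries, DESeq2 size factors, an offset for GC content and length (natural splines, 5 degrees of freedom, 99.5% of tested genes), a replicate block and each library left out. Log2 fold changes and SE are edgeR's. In an exact permutation test 3 against 3 libraries cannot go below p = 0.1, so single sums and ratios are given without one. Every member was tested, and sums use all members. Transcript length and GC content came from the GENCODE M21 transcript whose ends lie nearest the deposited gene, so levels per length are approximate. The closest libraries differed by a chi-square of 5.19 per degree of freedom, so none was a copy of another.

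On simulated counts for this comparison (11666 genes) edgeR recovered 49.3% of genes changed by 1.3-fold and 82.1% at 1.5-fold, and DESeq2 44.8% and 79.1%. The simulation changed 67 genes at each of these folds. It set each gene's variation by the trend with its level and not by the gene's own spread. These shares therefore need not hold for the measured genes. Members and lists were chosen with earlier results of these data known, so lists are described by counts and medians with no test. Values in every library are given for called members, scaffold genes, the 15 cytosolic and 5 mitochondrial members of smallest p, and of other lists at most 4 called genes are named. Values of other members and of Lars2, Mir6236 and Atf4 were added after they were seen. Some genes of the related lists are not reported here and were left out of the lists' counts and sums. Figures used matplotlib 3.10.9 in Python 3.11.15.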

Additional observations from a re-analysis of the deposited data

How the results depend on the processing

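How many genes and members were called depended on the test. edgeR called 0 genes and 0 members, DESeq2 1168 and 12, edgeR with a robust prior 529 and 5, and edgeR with no filter on low counts 1600 and 14, every member higher. limma-voom, DESeq2 size factors, the 1 CPM filter and the GC and length offset gave 0 of both. The lowest adjusted p of the main edgeR fit, 0.0505, lay just above the threshold. Several genes shared it, among them Eef1e1, Farsb and Pus7. Leaving out 1 library gave edgeR 0 to 1599 genes and 0 to 15 members, the highest without CCL19 replicate 3, and DESeq2 55 to 1704 genes and 0 to 17 members; the cause was not tested. The cytosolic median log2 fold change kept its sign under every alternative run (0.20 to 0.31). The mitochondrial median changed sign with the GC and length offset (0.0548) and lay between -0.0332 and 0.0277 with 1 library left out. Without Lars2, a choice made after seeing the data like the DESeq2 fits with a library left out, it was 0.0074. The difference in log2 ratio of summed cytosolic over mitochondrial levels was 0.39, 0.27 as a mean over members, 0.26 without the most abundant member of each compartment, 0.38 without Gars and Kars and 0.24 without Lars2. It ran from 0.0059 to 0.65 with 1 library left out, and without Lars2 from 0.18 to 0.29. Alternative values of single members were tallied for 19 only: those called by DESeq2, the scaffold genes and the 5 mitochondrial members of smallest p. Of these values, 220 kept their side of the threshold, 46 passed where the edgeR fit with all libraries had not, and 0 reversed in sign. Lars2 was outside this tally and did change sign, from -0.11 to 0.43 without CCL19 replicate 2 and 0.08 without no-CCL19 replicate 1. Deviations from the group mean had correlations of -0.16, 0.08 and -0.02 between same-numbered libraries of the groups. Differently numbered libraries gave -0.21 to 0.22. These values show no pairing by number, but with 3 libraries a group they cannot exclude one. With the replicate block edgeR called 0 genes and 0 members, and the cytosolic and mitochondrial medians were 0.27 and -0.02. Depth limits the least abundant mitochondrial enzymes most, with counts down to 172 in a library (Pars2).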
